A study of Mus musculus with 31 samples.

Results

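Glycolysis splits glucose to pyruvate, and several of its steps can be carried out by any of several enzymes encoded by paralogous genes. The genes described here were Hk1 and Hk2 (hexokinases, the entry step), Aldoa and Aldoc (aldolases), Pgk1 (phosphoglycerate kinase, the first step that returns ATP), Pgam1 (phosphoglycerate mutase), Eno1 and Eno2 (enolases), and Ldha and Ldhb (subunits of lactate dehydrogenase, which interconverts pyruvate and lactate). They were chosen by gene symbol, and every probe set that the platform annotation assigned to one of these symbols alone was taken. This gave 20 probe sets of 9 genes among the 45101 probe sets of the array: 5 for Aldoa, 4 for Ldhb, 3 for Pgk1, 2 each for Aldoc and Hk1, and 1 each for Eno2, Hk2, Ldha and Pgam1. Of the 10 symbols, Eno1 had 0 such probe sets, so Eno1 and the ratio of Eno2 to Eno1 were not analysed here. 1 further Hk1 probe set carried several symbols and was not used.

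Paralogous glycolytic enzymes are known to divide labour between tissues. Hk1 is the constitutive hexokinase and is abundant in brain, whereas Hk2 is the inducible form of muscle, fat and dividing cells, T cells included. In brain, Aldoc is the aldolase of astrocytes and Purkinje cells and Eno2 the enolase of neurons, and Ldhb is the heart-type subunit found in oxidative tissue, whereas Ldha is the muscle-type subunit. Activated T cells are known to raise aerobic glycolysis, in which Hk2, Pgk1, Pgam1 and Ldha are induced through the transcription factors Myc and Hif1a.

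The 31 arrays, 1 for each sample, carry labels of 10 groups of mouse CD4 T cells, all sorted from spleen and lymph node by a green fluorescent (EGFP) reporter of Foxp3, the transcription factor of regulatory T cells (Treg). Cells from bicistronic Foxp3/EGFP mice, which keep an intact Foxp3, make up the arrays labelled induced Treg (5 arrays; EGFP-negative cells treated for 3 days with antibodies to CD3 and CD28 and with TGF-beta, then sorted as EGFP-positive), failed induced Treg (3; the EGFP-negative cells of such cultures), activated T (4; the antibodies without TGF-beta), activated natural Treg (3; EGFP-positive cells given the antibodies and TGF-beta), natural Treg (4; EGFP-positive, not activated) and conventional T (3; EGFP-negative, not activated). Cells that carry the mutant Foxp3deltaEGFP allele make up induced Foxp3-delta (3; treated as for induced Treg, starting from cells of mutant males) and natural Foxp3-delta (2; EGFP-positive, from heterozygous females, not activated). The last groups are induced Treg and induced Foxp3-delta cells that were then held for 1 week with 100 units of interleukin 2 per ml, IL-2 induced Treg (2) and IL-2 induced Foxp3-delta (2). Strain and age of the mice are not given in the sources used here, and neither is whether samples came from separate animals or cultures, so a p-value here speaks of the spread among the samples alone, and that spread may be technical.

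The measured RNA went against the T cell labels. Of 13 T cell marker genes, 10 had a probe set, and their median lay at percentile 28.2 of an array on average and between 25.9 and 32.1 on the 31 arrays, where a percentile is the rank of a probe set among all non-control probe sets of its array. The T cell receptor chains Cd3e and Cd3d averaged 36.8 and 14.8 intensity units and Cd4 19.8, whereas 27 probe sets for bacterial transcripts that were not spiked read 8.54 units at their median, and 95% of their values over the 31 arrays were at most 14.3. The brightest of the 10, Zap70 and Ptprc, averaged 118.8 and 97.6 units (percentiles 66.6 and 63.9), above the highest control value of 35.5. The median percentile was 99.3 for 9 neuron markers (98.7 to 99.7 over the arrays), 99.2 for 8 astrocyte markers, 99.4 for 7 measured oligodendrocyte markers and 82.5 for 8 microglia markers (81.3 to 84.4), and the groups are therefore called by their labels only. The arrays were also not on a common level, with deposited median intensities from 22.2 to 55.4. By their hybridisation controls and brightness they fell into 3 array sets: set 1 (15 arrays, with every array labelled natural Treg, conventional T, IL-2 induced Treg and IL-2 induced Foxp3-delta, 2 induced Treg and 2 failed induced Treg), set 2 (6) and set 3 (10, with every activated natural Treg array and 3 of the 4 activated T arrays). In bulk RNA, fewer cells of a type and less RNA per cell cannot be told apart.

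Promoter sequences are shown for Pgam1, Pgk1 and Ldha, whose levels differed between label groups and array sets, with Ldhb as the paralog of Ldha. They were searched for ACGTG, a form of the core of Hif1a sites, which also lies in the Myc site CACGTG. Other forms of the core, such as GCGTG, were not searched. Each is 250 bases upstream and 50 bases downstream of the gene's RefSeq start, written 5′ to 3′ on the gene's strand from assembly GRCm38.p6, with every ACGTG or its reverse complement CACGT in capitals; where matches overlap, as in a CACGTG site, they form 1 run of capitals. The windows lie at chr19:41911621-41911920 on the plus strand (Pgam1), chrX:106186850-106187149 on the plus strand (Pgk1), chr7:46845554-46845853 on the plus strand (Ldha, the first of its 2 windows) and chr6:142507908-142508207 on the minus strand (Ldhb).
Pgam1: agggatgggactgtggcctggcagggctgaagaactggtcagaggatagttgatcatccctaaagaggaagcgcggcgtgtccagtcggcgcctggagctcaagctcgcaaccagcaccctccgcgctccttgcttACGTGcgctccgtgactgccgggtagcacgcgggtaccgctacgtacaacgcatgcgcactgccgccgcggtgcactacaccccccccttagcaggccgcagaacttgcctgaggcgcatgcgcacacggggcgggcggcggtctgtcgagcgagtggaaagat
Pgk1: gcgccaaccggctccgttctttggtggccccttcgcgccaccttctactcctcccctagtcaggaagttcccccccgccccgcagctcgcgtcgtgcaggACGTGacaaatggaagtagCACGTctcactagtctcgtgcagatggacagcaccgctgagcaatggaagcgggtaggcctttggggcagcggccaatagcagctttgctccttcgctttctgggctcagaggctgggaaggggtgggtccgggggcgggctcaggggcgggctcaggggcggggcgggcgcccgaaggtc
Ldha: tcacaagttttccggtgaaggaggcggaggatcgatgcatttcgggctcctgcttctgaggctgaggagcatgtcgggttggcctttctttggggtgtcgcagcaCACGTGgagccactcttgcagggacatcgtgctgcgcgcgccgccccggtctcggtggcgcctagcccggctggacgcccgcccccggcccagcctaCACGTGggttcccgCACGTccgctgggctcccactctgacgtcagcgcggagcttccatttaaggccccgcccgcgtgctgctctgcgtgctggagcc
Ldhb: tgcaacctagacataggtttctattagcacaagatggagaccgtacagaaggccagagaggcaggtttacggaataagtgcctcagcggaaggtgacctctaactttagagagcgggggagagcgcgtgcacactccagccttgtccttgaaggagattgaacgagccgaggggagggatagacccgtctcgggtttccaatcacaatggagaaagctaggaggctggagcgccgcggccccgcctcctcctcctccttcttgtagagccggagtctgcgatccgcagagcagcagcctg
The Ldha window shown held 5 matches over both strands and its second window, at chr7:46846832-46847131, 0. In the other windows shown, that of Pgk1 held 2, that of Pgam1 1 and that of Ldhb 0. A CACGTG site counts on each strand, so the matches of the Ldha window form fewer than 5 runs of capitals. The motif occurs in 19.6% of the 32851 RefSeq promoter windows of this length, and 0.183% hold 5 or more matches. The cut of 5 is the count of the Ldha window itself, so the 0.183% is a description and no test. Over all 10 symbols, 8 of 17 windows held the motif, and these belonged to 7 symbols. Windows of 1 gene can overlap, as the Aldoa windows with a match do, and the count was given no test. A match describes the letters and shows no binding.

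Most of the glycolytic enzymes were among the brightest probe sets of every array. Of the 20 probe sets, 17 had a mean percentile over 90 and 11 one over 99, and all 20 passed the filter on dim probe sets. The exceptions were Hk2, the dimmer of the Aldoa probe sets and the dimmer of the Aldoc probe sets. Because probe sets differ in how well they bind their target, levels are given by gene and are not ranked against each other.

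At the entry step, Hk1 was among the bright probe sets of every array and Hk2 lay near the middle. Hk1 averaged 1456 ± 466 (1437974_a_at) and 1018 ± 242 intensity units (1420901_a_at; SD, n = 31), at mean percentiles of 95.2 and 93.2. Hk2 averaged 50.5 ± 14.8 units (SD, n = 31), at percentile 53.4, and ran from 18.0 to 77.9 units. Every array read Hk2 above the 14.3 units that bound 95% of the bacterial control values. The highest control value was 35.5 units, and 6 of the 31 arrays read Hk2 at or under it: 2 of 4 activated T, 3 of 3 activated natural Treg and 1 of 2 natural Foxp3-delta arrays.

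Among the aldolases, the brighter Aldoc probe set (1451461_a_at) averaged 15383 ± 3879 units (SD, n = 31), at percentile 99.96, and ran from 8289 to 23292. The other Aldoc probe set (1424714_at) averaged 593 ± 162 units, at percentile 88.3. 4 of the 5 Aldoa probe sets averaged between 6600 and 10537 units, at percentiles from 99.5 to 99.8, and the fifth (1447734_x_at) averaged 420 ± 113 units, at percentile 84.5.

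Pgk1 averaged 6719 ± 1607 units on probe set 1417864_at (percentile 99.5), 4135 ± 1184 on 1438640_x_at (98.7) and 1475 ± 506 on 1439435_x_at (95.1; SD, n = 31 each). Pgam1 averaged 3498 ± 940 units at percentile 98.3, and Eno2, the neuronal enolase, 5424 ± 1376 units at percentile 99.2, with 3311 to 8240 units over the arrays. Of the lactate dehydrogenase subunits, Ldhb averaged between 8142 and 10055 units on its 4 probe sets, at percentiles from 99.6 to 99.8. Ldha averaged 1170 ± 313 units at percentile 94.1, and ran from 561 to 1849.

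**Figure D1:**
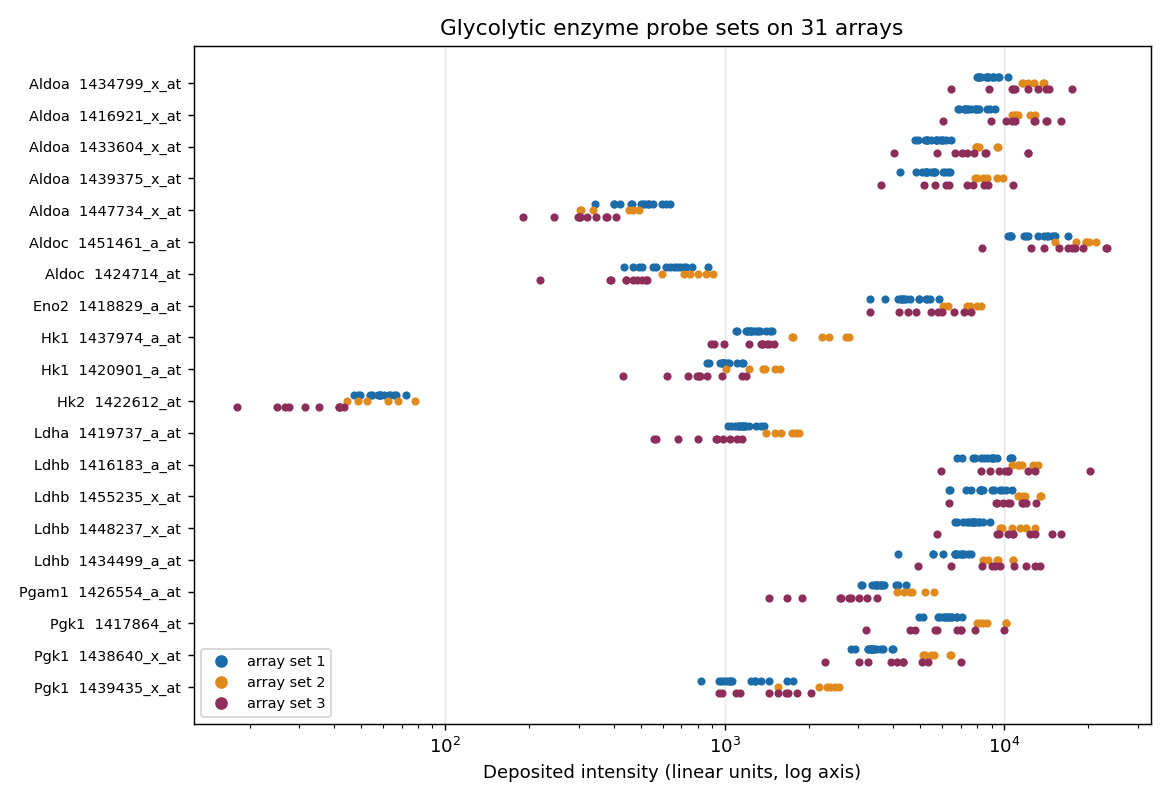
Deposited intensity (linear units on a log axis) of the 20 probe sets of 9 glycolytic genes on all 31 arrays, each point 1 array, coloured by array set. Hk2 sits between 18.0 and 77.9 units, whereas the main probe sets of Aldoc, Aldoa, Ldhb, Pgk1 and Eno2 sit at 3190 units or more on every array.

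The members differed in how much they varied. In deposited units the highest over the lowest array was between 2.14-fold (Ldhb 1455235_x_at) and 4.33-fold (Hk2), while the array medians ran from 22.2 to 55.4. After quantile normalisation, on the log2(intensity + 16) scale, Pgk1 1438640_x_at spanned only 0.10 over the 31 arrays and Aldoa 1439375_x_at 0.21. The widest spans were those of Aldoa 1447734_x_at (1.21), Aldoc 1424714_at (1.12), Pgam1 (0.99) and Pgk1 1439435_x_at (0.93).

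Pgam1 differed between the array sets without overlap. Its mean normalised level was 12.09 in set 1, 11.75 in set 2 and 11.38 in set 3, and the sets ranged apart (11.90 to 12.25, 11.69 to 11.82 and 11.26 to 11.49). Within the arrays labelled induced Treg, the 2 arrays of set 1 read 12.16 and 12.21, the 2 of set 2 read 11.78 and 11.71, and the 1 of set 3 read 11.37. Ldha (set means 10.33, 10.21 and 10.03) and Pgk1 1417864_at (12.86, 12.77 and 12.51) had the same order of the sets.

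The order of the groups by level was therefore looked at with the sets in view. For Pgam1 the highest mean was 12.19 ± 0.08 (IL-2 induced Treg, SD, n = 2) and the lowest 11.38 ± 0.08 (activated natural Treg, n = 3). Of the 9 steps between neighbouring groups, 2 were larger than the spread of the groups, the step of 0.09 between IL-2 induced Foxp3-delta and natural Treg and that of 0.17 between natural Treg and conventional T. For Ldha, Eno2 and the brighter probe sets of Pgk1 and Aldoc the same holds for few or no steps: 0 of 9 for Ldha and Eno2, and 1 of 9 for Aldoc and for Pgk1 1417864_at. Eno2 group means lay between 12.33 and 12.49.

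Stimulation through CD3 and CD28 is the setting in which T cells are known to raise glycolysis, and the arrays labelled activated T were compared with those labelled conventional T. Here 1 Pgk1 probe set and 1 Aldoa probe set were higher and another Aldoa probe set was lower. Of the 20 probe sets, 3 were called by limma (adjusted p under 0.05 over all 24670 probe sets tested), 2 higher and 1 lower, whereas 6.17% of all probe sets tested were called (2.98% higher and 3.19% lower). With 20 probe sets, several of them of 1 gene, such a count is not read as a property of the members. The groups did not overlap for 6 of the 20 members, against 21.9% of all probe sets. The median log2 difference of the 20 was -0.02, against 0.00094 for all probe sets.

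The largest of the 3 was Pgk1 1439435_x_at, which read 10.81, 10.87, 10.77 and 10.74 on the arrays labelled activated T, against 10.07, 10.19 and 10.12 on those labelled conventional T. The groups did not overlap, and the log2 difference was 0.67 (SE 0.11, limma adjusted p = 0.002265). The other Pgk1 probe sets did not follow it: 1417864_at read 12.80, 12.53, 12.48 and 12.55 on activated T arrays, against 12.86, 12.92 and 12.88 on conventional T arrays, a difference of -0.30 (SE 0.10, limma adjusted p = 0.0632). Probe set 1438640_x_at differed by 0.02 (SE 0.05, limma adjusted p = 0.8369).

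Aldoa was split in the same way. Probe set 1416921_x_at read 13.25, 13.40, 13.32 and 13.51 on activated T arrays, against 13.05, 13.18 and 13.08 on conventional T arrays (difference 0.27, SE 0.07, limma adjusted p = 0.02362). Probe set 1447734_x_at read 8.23, 8.51, 8.49 and 8.53 on activated T arrays, against 9.15, 9.05 and 9.08 on conventional T arrays (difference -0.65, SE 0.15, limma adjusted p = 0.01602). Neither pair of groups overlapped, and the other 3 Aldoa probe sets differed by -0.02 to 0.05. Both calls were lost without any 1 conventional T array (limma adjusted p up to 0.1012 for 1416921_x_at and 0.07215 for 1447734_x_at), and that of 1416921_x_at also without activated T 2 or 4.

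Of the other members named above as induced in activated T cells, Hk2, Ldha and Pgam1 were not called in this comparison. Hk2 read 5.99, 5.73, 5.57 and 6.11 on activated T arrays, against 6.01, 6.25 and 6.11 on conventional T arrays, and the difference was -0.28 (SE 0.12, limma adjusted p = 0.1481). Ldha read 10.32, 10.03, 10.01 and 10.05 on activated T arrays, against 10.37, 10.30 and 10.32 on conventional T arrays (difference -0.23, SE 0.08, limma adjusted p = 0.09136). Pgam1 read 11.73, 11.49, 11.35 and 11.47, against 11.90, 11.90 and 11.96 on conventional T arrays (difference -0.41, SE 0.17, limma adjusted p = 0.1462). For each, the activated T array with the highest or next to highest value was replicate 1, the only one of the 4 in set 2.

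In the arrays labelled activated natural Treg against natural Treg, 6 of the 20 probe sets were called, 3 higher and 3 lower, whereas 15.6% of all probe sets tested were called (7.75% higher and 7.84% lower). The groups did not overlap for 7 of the 20, against 29.1% of all probe sets. The median log2 difference of the 20 was 0.01, against -0.00084 for all probe sets. Pgk1 1439435_x_at was again higher, with 10.68, 10.63 and 10.94 on activated natural Treg arrays, against 10.07, 10.06, 10.07 and 10.08 on natural Treg arrays (difference 0.68, SE 0.11, limma adjusted p = 0.0008758). The 4 natural Treg arrays lay close together, and every activated natural Treg array was above them.

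Pgk1 1417864_at went the other way on the same arrays, with 12.52, 12.46 and 12.62 on activated natural Treg arrays, against 12.83, 12.85, 12.91 and 12.89 on natural Treg arrays (difference -0.34, SE 0.10, limma adjusted p = 0.0195). Pgam1 read 11.34, 11.33 and 11.47 on activated natural Treg arrays, against 12.15, 12.05, 12.04 and 12.14 on natural Treg arrays (difference -0.71, SE 0.17, limma adjusted p = 0.008244). Ldha read 9.95, 9.98 and 10.10 on activated natural Treg arrays, against 10.32, 10.30, 10.28 and 10.30 on natural Treg arrays (difference -0.29, SE 0.08, limma adjusted p = 0.01882). In all 3 the groups did not overlap. The Pgk1 1417864_at and Ldha calls were lost without activated natural Treg 1 or 2 (limma adjusted p up to 0.0728 and 0.07607), while that of Pgam1 held without any 1 array (up to 0.03274).

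The remaining calls were small. Aldoa 1416921_x_at read 13.31, 13.34 and 13.48 on activated natural Treg arrays, against 13.09, 13.19, 13.24 and 13.15 on natural Treg arrays (difference 0.21, SE 0.07, limma adjusted p = 0.03816). Ldhb 1448237_x_at read 13.39, 13.39 and 13.34 on activated natural Treg arrays, against 13.20, 13.10, 13.15 and 13.20 on natural Treg arrays (difference 0.21, SE 0.07, limma adjusted p = 0.04724). Each is 1 probe set of a gene whose other probe sets were not called, and the brightest Ldhb probe set (1416183_a_at) had the opposite sign (-0.15, SE 0.08, limma adjusted p = 0.2046). The Ldhb call was lost whenever any 1 of the 7 arrays was left out (limma adjusted p 0.06546 to 0.1161), and the Aldoa call without any 1 of 5 of them (up to 0.1652; it held without activated natural Treg 1 or natural Treg 3).

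The scaling of the arrays also bears on these calls. With values as deposited, Pgk1 1439435_x_at differed by 0.58 (limma adjusted p = 0.06244) and 0.33 (limma adjusted p = 0.1984) in the same comparisons, and with arrays scaled to a common median 13 and 14 members were called, with Pgk1 1417864_at at 0.52 and Ldha at 0.0272 for activated natural Treg against natural Treg.

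Array set and label cannot be told apart in either comparison, because no set holds arrays of both groups. With the set as a block in the fit, which then rests on the other labels that span the sets, 0 of the 20 probe sets were called in both comparisons (20 and 49 of all probe sets tested were). Pgk1 1439435_x_at was among the calls lost, at 0.69 (SE 0.16, limma adjusted p = 0.09887) for activated T against conventional T and 0.70 (SE 0.16, limma adjusted p = 0.07222) for activated natural Treg against natural Treg. Pgam1 became 0.09 (SE 0.08), Ldha -0.01 (SE 0.08), Pgk1 1417864_at -0.02 (SE 0.07) and Ldhb 1448237_x_at 0.01 (SE 0.08) for activated natural Treg against natural Treg. The measures of RNA quality did not shift together. The actin 3′ to 5′ signal ratio was 2.05 to 2.13 on activated natural Treg arrays, against 1.73 to 1.84 on natural Treg arrays, and 1.62 to 1.99 on activated T arrays, against 1.79 to 1.80 on conventional T arrays. The Gapdh 3′ to 5′ ratio was 0.904 to 1.02 on activated natural Treg arrays, against 1.01 to 1.03 on natural Treg arrays, and 0.854 to 0.986 on activated T arrays, against 0.999 to 1.03 on conventional T arrays, without overlap in the last pair. Summed astrocyte markers (8 of 8 measured) ran from 26828 to 58873 units on activated T arrays, against 38858 to 45159 on conventional T arrays, and from 39989 to 53826 on activated natural Treg arrays, against 37679 to 41268 on natural Treg arrays. Of 24 tested astrocyte probe sets, 1 was called higher and 0 lower for activated T, and 1 higher and 3 lower for activated natural Treg; of 18 neuron probe sets, 0 were higher and 1 lower in each. For activated natural Treg against natural Treg, summed oligodendrocyte markers (7 of 8 measured) ran from 62805 to 75768 on activated natural Treg arrays, against 52551 to 60193 on natural Treg arrays, without overlap, with 2 of 20 probe sets higher and 1 lower. Summed T cell markers (10 of 13 measured) ran from 209 to 293 on activated natural Treg arrays, against 339 to 387 on natural Treg arrays, also without overlap, with 1 of 4 probe sets higher and 0 lower. Of 13 microglia probe sets, 0 were higher and 2 lower in that comparison, and 0 were called for activated T against conventional T. The summed levels are in deposited units. Array medians were 24.2 to 29.3 on activated natural Treg arrays, against 39.0 to 47.7 on natural Treg arrays. After quantile normalisation the mean log2 level of the T cell markers was instead higher, 5.39 to 5.48 against 5.33 to 5.35, without overlap. That of the oligodendrocyte markers then overlapped, 12.64 to 12.76 against 12.61 to 12.75. The shares of all probe sets called are the 6.17% and 15.6% given above. The part of RNA quality and of cell makeup in the differences was not tested.

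**Figure D2:**
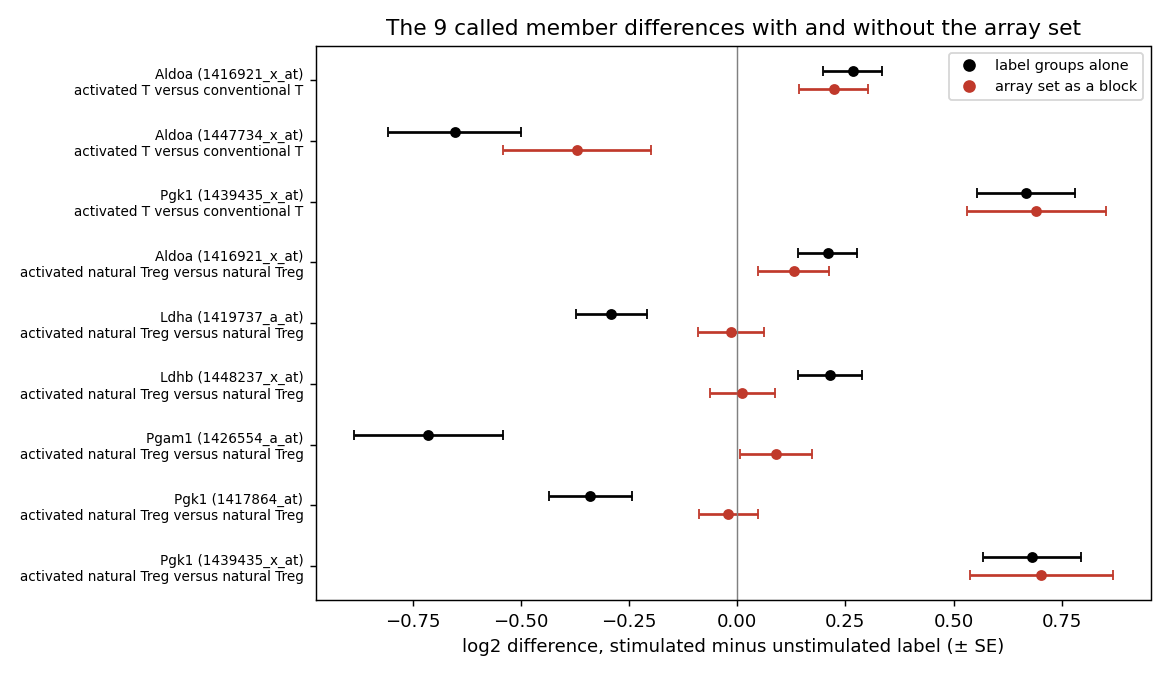
Log2 difference (± SE) of the 9 called member differences, stimulated minus unstimulated label, from the fit with label groups alone (black) and with the array set as a block (red). Pgk1 1439435_x_at is at 0.69 and 0.70 with the block but no longer called (adjusted p 0.09887 and 0.07222), and Pgam1, Ldha, Ldhb 1448237_x_at and Pgk1 1417864_at move to between -0.02 and 0.09.

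Pgk1 1439435_x_at also varied with label within array set 1. In set 1 the natural Treg arrays and the conventional T arrays read between 10.06 and 10.19. In the same set, the 2 induced Treg arrays read 10.56 and 10.65, the 2 failed induced Treg arrays 10.71 and 10.49, the 2 IL-2 induced Foxp3-delta arrays 10.46 and 10.58, and the 2 IL-2 induced Treg arrays 10.02 and 10.68. The natural Foxp3-delta arrays, in sets 2 and 3, read 10.13 and 10.26, and the arrays of the other labels in those sets read between 10.30 and 10.94. This pattern was noticed in the values and was given no test.

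**Figure D3:**
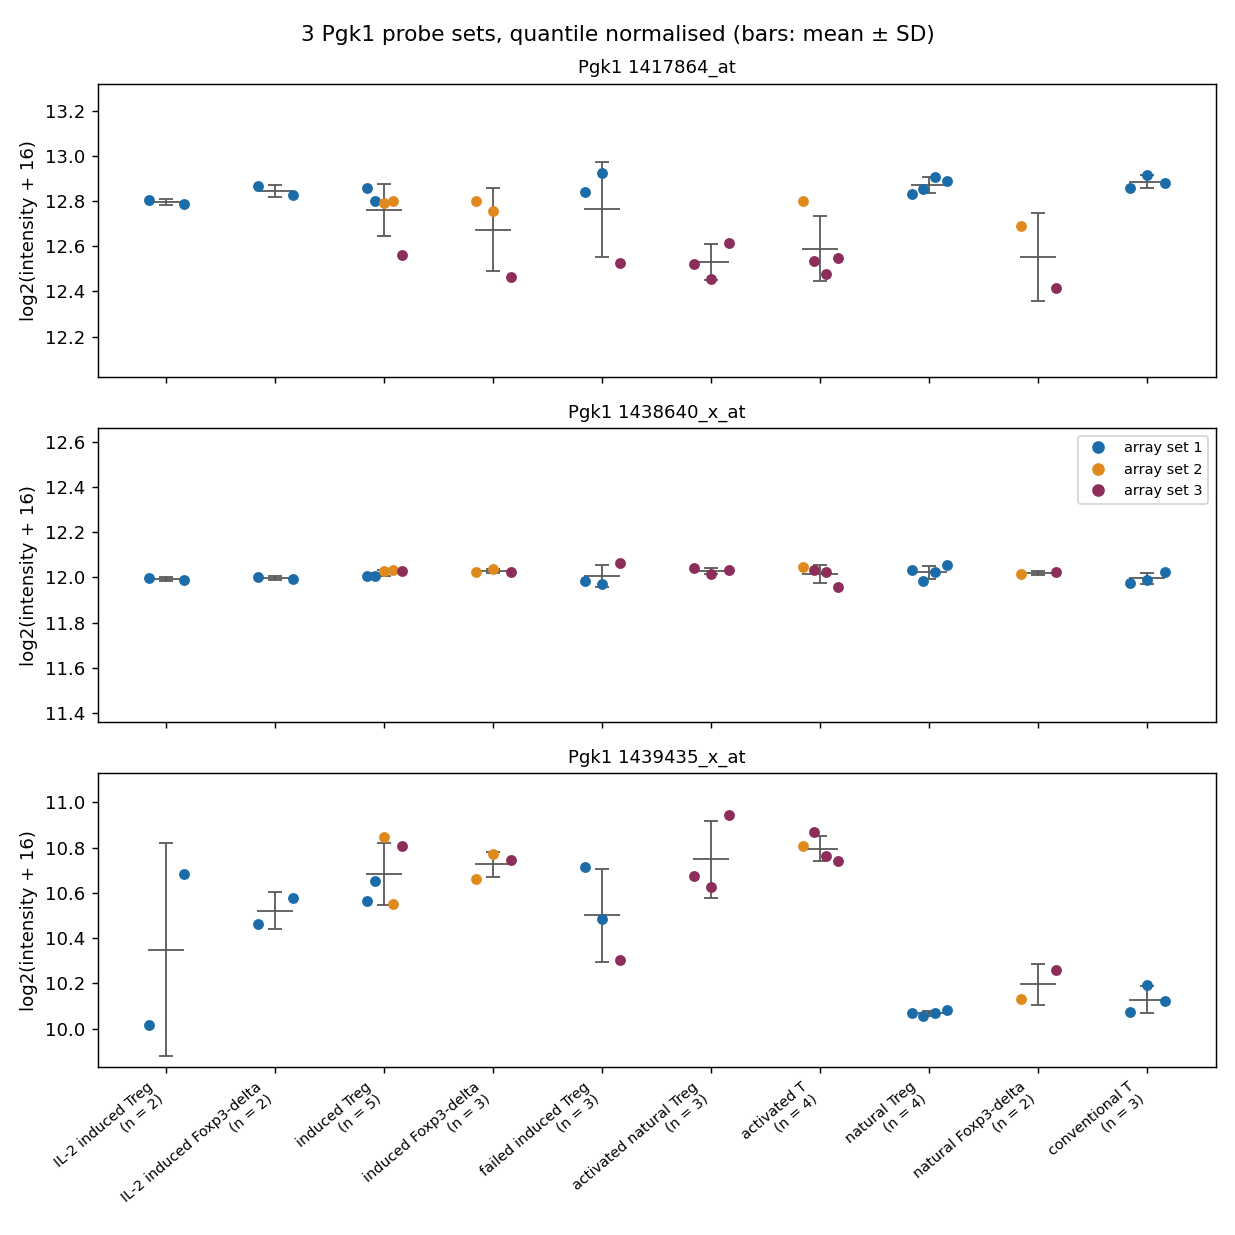
Normalised level, log2(intensity + 16), of the 3 Pgk1 probe sets by label group, each point 1 array coloured by array set, with mean ± SD; each panel has its own level but the same span. Only 1439435_x_at separates the unstimulated labels (10.06 to 10.26) from most of the others, 1417864_at is low on arrays of set 3, and 1438640_x_at spans 0.10 in all.

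The other 9 comparisons gave 0 called members by limma. For activated natural Treg against activated T, labels that also differ in TGF-beta, 0.799% of all probe sets tested were called. At an unadjusted p under 0.05, 2 of the 20 members stood against 13.8% of all probe sets. The member with the smallest adjusted p was Aldoa 1447734_x_at, with 9.28, 8.95 and 8.92 on activated natural Treg arrays, against 8.23, 8.51, 8.49 and 8.53 on activated T arrays (difference 0.61, SE 0.15, limma adjusted p = 0.05598). Within set 3 alone the difference was 0.54, and with the array set as a block it was called (0.54, SE 0.13, limma adjusted p = 0.02729). This is the dimmest Aldoa probe set. Within set 3 the other Aldoa probe sets differed by -0.02, -0.03, 0.01 and -0.01, so the difference is that of 1 probe set and is not read as one of Aldoa.

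For induced Treg, 0.0567% of all probe sets were called against activated T, 0% against failed induced Treg and 0% against induced Foxp3-delta. The share called was 0.0365% for failed induced Treg against activated T, 0.00405% for natural Treg against conventional T (both wholly in set 1) and 0.0892% for natural Treg against natural Foxp3-delta. It was 1.78% for IL-2 induced Treg against induced Treg and 0.332% for IL-2 induced Foxp3-delta against induced Foxp3-delta. At an unadjusted p under 0.05, the members stood beside all probe sets as follows. For induced Treg, they were 2 of 20 against activated T (10.6% of all probe sets), 2 against failed induced Treg (4.46%) and 0 against induced Foxp3-delta (3.04%). They were 5 for failed induced Treg against activated T (13.3%), 0 for natural Treg against conventional T (2.53%) and 4 for natural Treg against natural Foxp3-delta (15.5%). They were 3 for IL-2 induced Treg against induced Treg (16%) and 2 for IL-2 induced Foxp3-delta against induced Foxp3-delta (15.9%). For natural Treg against conventional T the member differences ran from -0.20 to 0.28.

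Members whose groups did not overlap are given beside the share of all probe sets for which this held. They were 7 of 20 members for natural Treg against natural Foxp3-delta (29.9% of all probe sets), 3 for IL-2 induced Treg against induced Treg (23.8%) and 7 for IL-2 induced Foxp3-delta against induced Foxp3-delta (38.1%). They were 3 for failed induced Treg against activated T (7.8%), 2 for activated natural Treg against activated T (7.63%) and 2 for natural Treg against conventional T (6.39%). For induced Treg they were 0 against activated T (1.95%), 0 against failed induced Treg (2.74%) and 0 against induced Foxp3-delta (2.06%).

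The difference between the stimulation effects of the natural Treg and the conventional T labels was tested as an interaction. The activated natural Treg label also includes TGF-beta and the activated T label does not, so labelled cell type and TGF-beta cannot be told apart in it. Because the measured RNA went against the T cell labels, the interaction is not read as a T cell response. Array set cannot be separated from label in it either. The interaction called 0 of all 24670 probe sets, with 2 of 20 members at an unadjusted p under 0.05, against 7.55% of all probe sets. The largest member value was that of Aldoa 1447734_x_at (0.47, SE 0.22, limma adjusted p = 0.6489). Several of these comparisons share arrays (activated T, induced Treg, natural Treg), so their values are not independent.

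Paralog ratios were taken within each array from the deposited intensities of the brightest probe set of each gene, so a scale factor of an array cancels. Their absolute size depends on the probes, and only their variation among arrays is described. The ratio of Aldoc to Aldoa ran from 1.02 to 1.91 over the 31 arrays (mean 1.47 ± 0.25, SD). Label groups held 30.2% of the variance of its log2 value (permutation test over 100000 resamples, p = 0.456, also after adjustment over 3 ratios), and array sets held 1.87%. With Aldoa 1447734_x_at in place of the brightest Aldoa probe set, the share between labels was 68.1% (permutation test, adjusted p = 0.00366). The intensity of 1447734_x_at over the brightest Aldoa probe set averaged 0.057, 0.031 and 0.028 in array sets 1, 2 and 3. Labels were spread unevenly over the sets, so the 68.1% cannot be assigned to label apart from array set. With the brightest probe sets, the lowest group mean ratio was 1.22 ± 0.23 (conventional T, n = 3), and the highest 1.69 ± 0.08 (IL-2 induced Foxp3-delta, n = 2).

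In deposited units, the ratio of Ldhb to Ldha separated array set 3 from the other sets. It ran from 9.17 to 17.6 on the 10 arrays of set 3, against 6.41 to 8.25 on the 15 of set 1 and 6.66 to 8.02 on the 6 of set 2. Array sets held 78.3% of its log2 variance, and label groups 48.7% (permutation test, adjusted p = 0.104). With the other Ldhb probe sets, label groups held 55.7% to 68.3% (permutation tests, adjusted p 0.00457 to 0.0343). In label groups that span the sets, the array of set 3 was the highest of its group: 11.02 on induced Treg 5, against 6.70 to 7.66 on the other 4 induced Treg arrays, and 17.6 on failed induced Treg 3, against 7.80 and 7.92 on the other 2.

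The ratio of Hk1 to Hk2 ran from 17.0 to 56.7, with a mean of 30.9 ± 11.1 (SD, n = 31). Label groups held 64.95% of its log2 variance (permutation test, p = 0.00305, adjusted p = 0.00915), and array sets held 69.2%. Set 1 lay between 17.0 and 27.0, set 2 between 30.3 and 45.7 and set 3 between 25.2 and 56.7. Among the groups, the ratio was 45.7, 56.7, 55.2 and 29.4 on activated T arrays, against 25.4, 17.8 and 21.2 on conventional T arrays, and the 2 highest of these are the arrays with Hk2 within the range of the bacterial controls. After quantile normalisation the share between labels was 37.8% (permutation test, adjusted p = 0.352). With array set means removed, the share between labels was 23.1% (permutation within sets, adjusted p = 0.617).

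Label comparisons of the ratios gave 0 of 33 exact permutation tests (3 ratios, 11 comparisons, two-sided) an adjusted p under 0.05, and the smallest adjusted value was 0.412. 2 tests had an unadjusted p under 0.05, both for activated natural Treg against natural Treg and both at 0.0286, the smallest p that 3 arrays against 4 can give in an exact permutation test. The log2 ratio of Ldhb to Ldha was higher by 0.78 on the activated natural Treg arrays (15.7, 12.2 and 10.96, against 7.66, 7.88, 7.29 and 7.13 on natural Treg arrays). That of Hk1 to Hk2 was higher by 0.80 (34.3, 25.2 and 45.8, against 17.6, 22.8, 17.0 and 21.6 on natural Treg arrays), with Hk2 on all 3 activated natural Treg arrays within the range of the bacterial controls. The groups did not overlap in 7 of the 33 comparisons. Designs of 2 against 3 or 4 arrays cannot reach p under 0.05, since their smallest exact values are 0.1 and 0.0667.

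**Figure D4:**
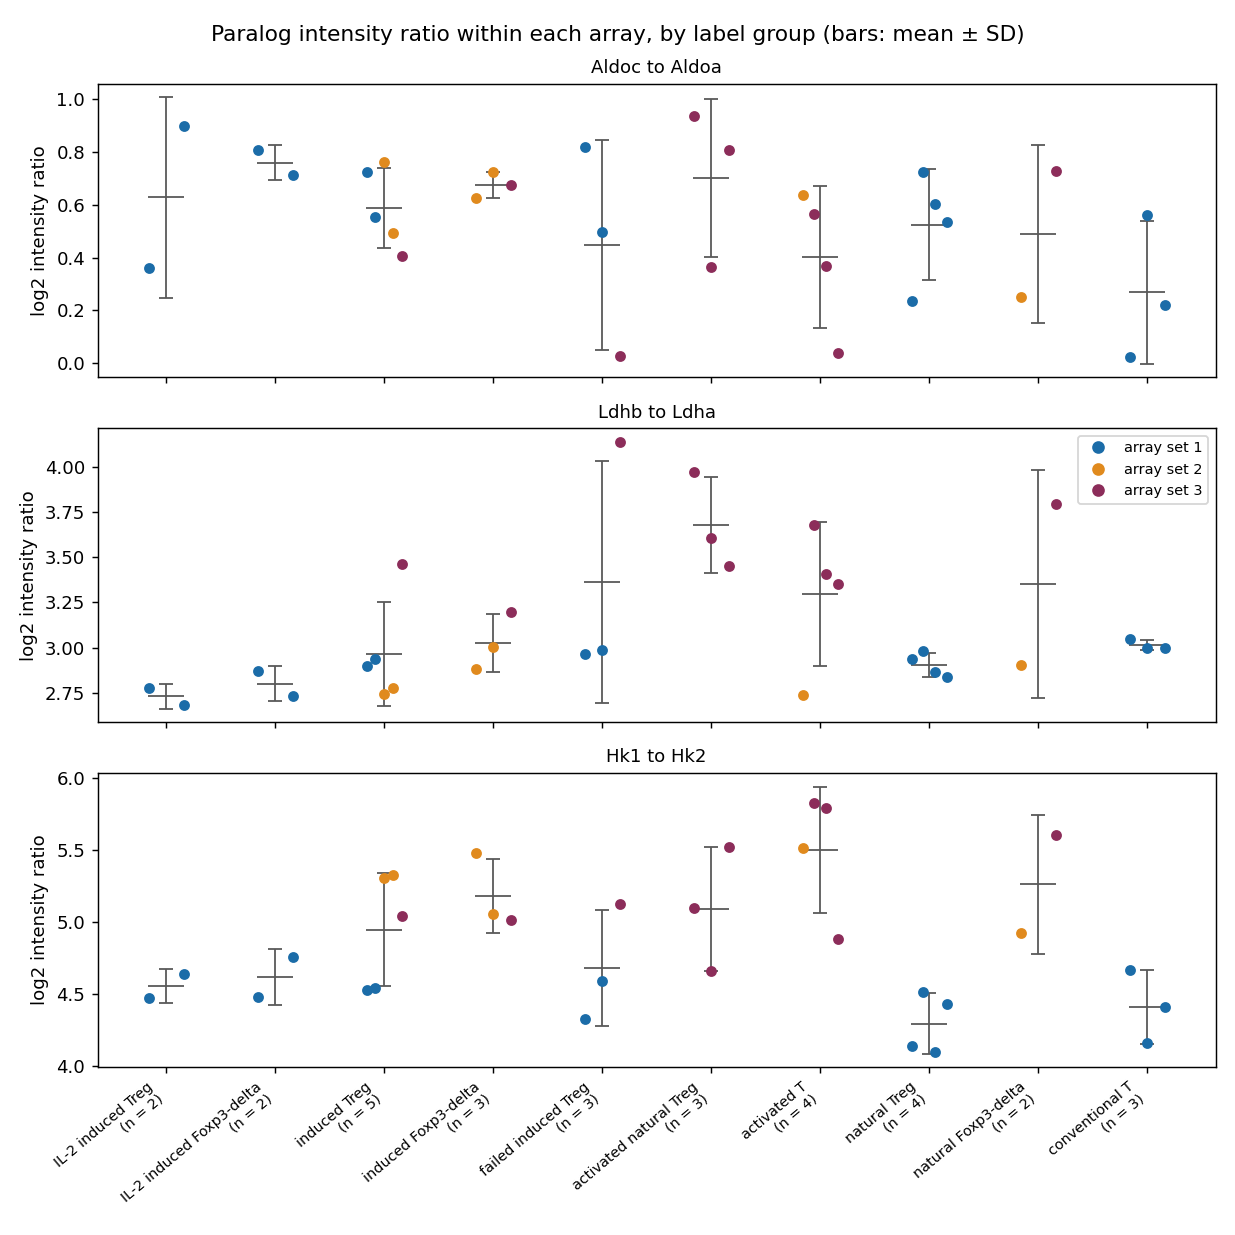
Log2 of the intensity ratio within each array for Aldoc to Aldoa, Ldhb to Ldha and Hk1 to Hk2, by label group, each point 1 array coloured by array set, with mean ± SD. Every array of set 3 lies above every array of sets 1 and 2 for Ldhb to Ldha (9.17 and higher as a ratio), while Aldoc to Aldoa shows no such order.

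Probe sets of 1 gene often differed in sign. Over the 21 pairs of probe sets of 1 gene, the sign of the label difference was the same in 104 of 231 cases (21 pairs, 11 comparisons, which share arrays). Signs were counted whatever the size of the difference, and most of these comparisons had no called member. The count therefore cannot tell disagreement from noise around small differences. The 2 Aldoc probe sets had the same sign in 3 of 11 comparisons and the 2 Hk1 probe sets in 4 of 11. For Pgk1, 1417864_at had the same sign as 1439435_x_at in 2 of 11 and as 1438640_x_at in 2 of 11. As a description across arrays that share a scan level and RNA quality, Pearson r between probe sets of 1 gene within an array set ran from -0.95 (an Ldhb pair, set 2, 6 arrays) to 0.79 (a Pgk1 pair, set 2), and 18 of the 21 pairs had a negative r in at least 1 set.

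The intensity ratio between probe sets of 1 gene also moved with the array set. Probe set 1447734_x_at over 1434799_x_at of Aldoa averaged 0.057 in set 1, 0.031 in set 2 and 0.028 in set 3, and 1438640_x_at over 1417864_at of Pgk1 averaged 0.555, 0.642 and 0.683. The Pgk1 ratio did not overlap between set 1 (0.519 to 0.590) and the other sets (0.622 to 0.729 in set 3, 0.632 to 0.656 in set 2). Probe sets assigned to the same gene thus shifted against each other between the array sets. 9 of the 20 probe sets end in _x_at, the maker's mark for probes that can bind other transcripts.

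Other genes of the pathway, from lists of 16 further enzymes, 8 transporters and 15 regulators, are given by their counts beside the share of all probe sets called, 6.17% for activated T against conventional T and 15.6% for activated natural Treg against natural Treg. None of these counts is read as a property of its list. For activated T against conventional T, 1 of 17 tested probe sets of 9 enzyme genes was higher, Bpgm 1415865_s_at (bisphosphoglycerate mutase; 0.34, SE 0.09, limma adjusted p = 0.03022), and 1 of 11 transporter probe sets was higher, Slc2a5 (the fructose transporter; 0.43, SE 0.13, limma adjusted p = 0.04421). 0 of 23 regulator probe sets were called. The median differences of the lists were -0.02, 0.05 and 0.01.

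For activated natural Treg against natural Treg, 2 enzyme probe sets were lower, Eno3 (the muscle enolase; -0.58, SE 0.14, limma adjusted p = 0.008747) and Bpgm 1415864_at (-0.56, SE 0.17, limma adjusted p = 0.02694). Slc2a5 was higher (0.64, SE 0.13, limma adjusted p = 0.002563) at a low level, averaging 30.3 units over all arrays. Of the regulators, Pfkfb3 1456676_a_at, a probe set of the enzyme that makes the activator of phosphofructokinase, was higher (0.31, SE 0.09, limma adjusted p = 0.02017). Mpc1, a subunit of the mitochondrial pyruvate carrier, was lower (-0.35, SE 0.12, limma adjusted p = 0.04852). The median differences were -0.02 for enzymes, 0.10 for transporters and 0.03 for regulators.

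Of the pyruvate kinase genes, which act at the last step of glycolysis, Pkm averaged 7421 ± 1924 units (percentile 99.6) and Pklr, the liver and red cell form, 56.2 ± 21.2 (54.2; SD, n = 31 each). The testis forms Pgk2 and Ldhc averaged 9.6 and 10.1 units, within the range of the bacterial controls. Slc2a1, the glucose transporter of the blood-brain barrier, averaged 1703 ± 448 units, Slc2a3, that of neurons, 1527 ± 393, and Slc16a3, the lactate exporter induced by hypoxia, 11.9 ± 2.3. Of the transcription factors named above, Hif1a averaged 1226 ± 313 units (percentile 94.4) and Myc 49.7 ± 11.4 (53.6).

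The genes most like each member over the 31 arrays were taken from 10454 candidate genes (brightest probe set above the median of the table on every array), by Pearson r after array set means had been removed. The highest r was 0.75 for Hk1 (with Tspan33), 0.73 for Ldhb (Cd320), 0.71 for Hk2 (Vdac3), 0.70 for Pgam1 (Kcnq5), 0.69 for Aldoa (Ptdss2), 0.68 for Aldoc (Fgd4), 0.67 for Pgk1 (Tmem47), 0.65 for Ldha (Inpp5j) and 0.64 for Eno2 (Vps52). No member was among the 3 most alike genes of another member. These are descriptions of the brightest probe sets, chosen as the highest of many values.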

How the data were processed

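Total RNA was labelled as biotinylated cRNA and hybridised to Affymetrix mouse arrays, per the labels' protocols. The authors deposited 1 linear intensity per probe set and array; the summarisation, background correction and scaling behind these intensities are not given in the sources used here. The number of arrays, 2 to 5 a group, limits the precision. Non-control probe sets (64 controls were left out) were quantile normalised and taken as log2(intensity + 16), so differences understate changes of dim genes. Tests were run for the 24670 probe sets (12174 genes) that exceeded the table's median of 39.8 on 2 or more arrays. The fit used R 4.3.3 and limma 3.58.1 (lmFit, eBayes, 1 mean per label group over all 31 arrays, Benjamini-Hochberg over all tested). Levels and ratios used the deposited intensities. Genes were named through the platform annotation (34945 probe sets with 1 symbol, 932 with several, 9160 with none listed). Array sets came from Ward clustering on the cre to bioB control ratio, the median and the 99th percentile of each array. Ratio tests were permutation tests. The fit was tested on simulated data with 200 changed probe sets: for activated T against conventional T it recovered 58% of changes of 0.5 and 98% of changes of 1 (log2). The simulated noise was independent between arrays and held no array set differences. These rates therefore do not describe the real comparison, in which no set holds arrays of both groups. Named were all members, called genes of the pathway lists and the 3 most alike genes. Members, lists, tests and array sets were chosen with earlier results of these data known. A ratio of Eno2 to Eno1 had been planned and was not analysed here, so adjustment ran over 3 ratios.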

Additional observations from a re-analysis of the deposited data

Results flagged for a closer look

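Within label groups of 4 or 5 arrays, 69 sets of values (probe sets and log2 ratios) were searched for an array standing apart from the rest, by the gap to its nearest neighbour over the whole range (Dixon's 95% limit), and 7 were found. Chance alone gives about 1 in 20, and values of 1 array are not independent. 4 of the 7 concern the array labelled induced Treg 5, the only induced Treg array of set 3. On it Hk1 1420901_a_at was lowest at 9.60 (9.97 to 10.10 on the other 4), Pgk1 1417864_at was lowest at 12.56 (12.79 to 12.86), Ldhb 1434499_a_at was highest at 13.15 (12.93 to 12.99), and the log2 ratio of Ldhb to Ldha was highest at 3.46 (2.74 to 2.94). 2 concern activated T 1, the only activated T array of set 2, where Aldoa 1447734_x_at was lowest at 8.23 (8.49 to 8.53 on the other 3) and Ldha was highest at 10.32 (10.01 to 10.05). The last is activated T 4, of set 3, where Ldhb 1416183_a_at was lowest at 13.15 (13.30 to 13.32). The part of the array sets in these values was not tested.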

How the results depend on the processing

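The scaling of the arrays changed the counts and some directions. Scaled to a common median, 13 members were called for activated T against conventional T, 14 for activated natural Treg against natural Treg, 5 for natural Treg against natural Foxp3-delta and 1 (Pgk1 1439435_x_at) for IL-2 induced Treg against induced Treg, and 5933 of the 6607 probe sets called for activated T against conventional T were then higher, with the median of all shifted by 0.12. Eno2 then turned to 0.70 in that comparison, and for activated natural Treg against natural Treg Eno2 turned to 0.78, Ldhb 1416183_a_at to 0.80, Pgk1 1417864_at to 0.52 and Ldha to 0.0272. With values as deposited, 4 members (Ldha, Hk2, Pgam1, Aldoa 1447734_x_at) were called higher for induced Treg against activated T, with the median of all shifted by 0.45 and 16074 of 16075 calls higher, and Pgk1 1439435_x_at was no longer called in the stimulation comparisons (0.58 and 0.33). The array set as a block left 0 and 0 calls in the stimulation comparisons and 1 in activated natural Treg against activated T, and turned Pgam1 to 0.0891. With 1 probe set a gene, the brightest, the stimulation comparisons had 0 and 3 calls, since the other probe sets of each gene were then not tested. Fitted on the groups compared alone, natural Treg against natural Foxp3-delta had 1 call (Aldoa 1447734_x_at).

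Leaving out 1 array at a time gave 1 to 5 calls for activated T against conventional T (5 without activated T 1, 1 without any conventional T array) and 2 to 5 for activated natural Treg against natural Treg (2 without activated natural Treg 2), with Pgk1 1439435_x_at called each time (adjusted p 0.003793 to 0.01785 and 0.00216 to 0.004173). It gave 0 to 1 for activated natural Treg against activated T (1 without activated natural Treg 3) and 0 to 1 for IL-2 induced Treg against induced Treg (1, Pgk1 1439435_x_at, without IL-2 induced Treg 2). The replicate numbers were not shown to pair the arrays, and pairing was not excluded. Deviations of same-numbered arrays correlated between -0.22 and 0.32, over 0.1 in 4 of 31 pairs and in all pairs of 0 of 11 comparisons. For induced Treg against failed induced Treg the values were 0.31 and 0.32 for numbers 1 and 2, all in array set 1, and 0.04 for number 3. The replicate block gave natural Treg against natural Foxp3-delta 2 calls (Pgam1, Aldoa 1447734_x_at), and the calls in the stimulation comparisons stayed at 3 and 6.

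The share of log2 ratio variance between labels depended on the probe set. Aldoc to Aldoa rose to 68.1% (adjusted p = 0.00366) with Aldoa 1447734_x_at and to 53.2% (adjusted p = 0.0453) with the dimmer Aldoc probe set as well, and Ldhb to Ldha to 68.3%, 57.3% and 55.7% (adjusted p = 0.00457, 0.0301 and 0.0343) with the other Ldhb probe sets. Hk1 to Hk2 fell to 37.8% after quantile normalisation (adjusted p = 0.352) and 23.1% with set means removed. Leaving out 1 array gave 24.2% to 38.3% for Aldoc to Aldoa, 41.9% to 58.8% for Ldhb to Ldha (adjusted p 0.0316 to 0.261, and under 0.05 without failed induced Treg 3, activated T 1 or natural Foxp3-delta 1) and 61.9% to 72.0% for Hk1 to Hk2. The causes were not tested. Pseudocounts of 1 and 64 and no filter on dim probe sets left every count within 1.5 times. Hk2 lay within the range of the bacterial controls on 6 arrays, which limits its precision.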
